A study of Mus musculus with 8 samples.

Results

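The messenger RNAs of 10 genes of the DNA replication fork were followed on polysomes, mRNAs loaded with several ribosomes, across fertilization in the mouse. The genes are Pcna, Rfc1 to Rfc5, Pola1, Prim1, Fen1 and Lig1. They are 10 of 18193 genes with a probe set, chosen by gene symbol in GEO's platform annotation, which gave them 19 of the 45037 probe sets that are not controls. Each group held 4 arrays. The first was made from one-cell embryos treated with α-amanitin, which blocks transcription by RNA polymerase II, and the second from oocytes arrested at metaphase II (MII), for which the labels name no treatment. Each array carried polysomal RNA from an independent batch of 160 to 500 eggs or embryos, amplified in 2 rounds. The labels used here name neither strain nor age of the animals. Embryo stage and α-amanitin changed together and cannot be told apart. The signal is relative to each array's total, so a change in the amount of an mRNA, in its loading onto ribosomes and in the RNA per egg cannot be told apart either.

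Before the first cleavage the embryo copies the DNA of both pronuclei with proteins that the egg stored or that are made from maternal mRNA. At each fork, DNA polymerase α with its primase lays down short primers. The clamp loader, built from Rfc1 to Rfc5, then opens the ring-shaped clamp PCNA and closes it around the primed DNA, where it tethers the replicative polymerases. On the lagging strand Fen1 trims the displaced flaps and Lig1 seals the remaining nicks. PCNA also serves DNA repair and recruits chromatin assembly and methylation enzymes.

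The polysomal signal of the clamp gene Pcna fell while those of the primase gene Prim1 and the flap nuclease gene Fen1 rose. Prim2, the other primase gene, and Dna2, also a flap nuclease, fell. Pcna was 4.303-fold lower in one-cell embryos. The brighter probe set of Prim1 was 6.523-fold higher and that of Fen1 10.79-fold higher. The clamp loader genes were mixed, and Pola1, Lig1 and Rfc5 did not pass the test. Of the 19 probe sets, 14 were bright enough to be tested, meaning brighter than the median probe set on 4 or more of the 8 arrays. At an adjusted p under 0.05 in limma, fitted on log2(intensity + 10) over 23336 probe sets, 8 of the 14 were higher and 1 was lower. Among all probe sets tested, 32.1% were called, 19.3% as higher and 12.8% as lower. The groups did not overlap in 9 of the 14, against 32.6% of all probe sets tested. Of the 14, 3 were bright enough only through the one-cell arrays and so had to differ, and among the other 11 the test called 5 higher and 1 lower. The groups did not overlap in 6 of those 11. The values for all probe sets tested, here and below, still include those bright enough through the arrays of 1 group only. By gene, with the brightest tested probe set standing for each, 4 of 9 were higher and 1 lower, where 34.8% of all genes tested were called. The 4 include Rfc2, which was bright enough only through its one-cell arrays. The median log2 change was 0.55 for those 11 (1.49 with the 3 that had to differ) and 0.17 for all probe sets tested. Without one-cell array 1, described next, 11 of the 14 were called (9 higher and 2 lower), where 34.5% of all probe sets tested were called.

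The arrays differed in quality. The median intensity was 71.8 on one-cell array 1, 27.8 to 37.9 on one-cell arrays 2 to 4 and 26.9 to 33.8 on MII arrays. The 18 spiked hybridization controls averaged 14880 (geometric mean) on one-cell array 1, 857.3 to 3718 on one-cell arrays 2 to 4 and 904.9 to 1364 on MII arrays. Log2 signals correlated across the tested probe sets at 0.763 to 0.808 between this array and the other one-cell arrays. All 10 oocyte markers examined lay above the array median on all 8 arrays, with summed intensities of 55036 to 91665 on one-cell arrays and 66131 to 90877 on MII arrays. The 10 measured markers of cumulus and granulosa cells, of which 4 lay above the median on most arrays, summed to 348 to 1206 on one-cell arrays and 469 to 573 on MII arrays. The 7 markers of sperm and spermatids, of which 2 lay above the median on most arrays, summed to 170 to 454 on one-cell arrays and 153 to 244 on MII arrays. Tnp1 and Tnp2 were above the median on no array. Prm2, which packages sperm DNA, read 245.9, 130.9, 80.3 and 152 on one-cell arrays, above the median on all 4, against 28, 31.5, 15.7 and 46.1 on MII arrays. Akap4, another marker of this list, went the other way, above the median on all 4 MII arrays and on no one-cell array. It read 22.4, 25.9, 25 and 6.1 on one-cell arrays, against 99, 61.8, 106.9 and 85.9 on MII arrays. The sums of the cumulus and of the sperm markers were both highest on one-cell array 1, and their part in the results was not tested.

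The promoter windows of the members are shown as sequence context for 3 genes with different outcomes, Pcna, which fell, and Prim1 and Rfc3, which had probe sets that rose. With RNA polymerase II inhibited in the embryos, the arrays read mRNAs and not promoter activity. The windows run from 250 bases before to 50 bases after the gene start, from RefSeq on GRCm38.p6, and 9 of the 10 genes matched the table (Rfc2 did not). Capitals mark the GC box (GGGCGG), the CCAAT box (CCAAT) and E2F-type letters (TTTGGCGC, TTTCGCGC, TTTCCCGC or TTTGCCGC), searched on both strands. No match overlapped another.
Pcna, chr2:132253131-132253430, minus strand: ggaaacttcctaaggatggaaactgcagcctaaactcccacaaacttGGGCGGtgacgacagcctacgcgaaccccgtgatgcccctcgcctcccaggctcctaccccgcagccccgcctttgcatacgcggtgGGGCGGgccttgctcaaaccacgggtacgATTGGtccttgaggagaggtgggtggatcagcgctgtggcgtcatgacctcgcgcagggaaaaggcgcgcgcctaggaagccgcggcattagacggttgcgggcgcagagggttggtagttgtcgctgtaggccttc
Prim1, chr10:128014965-128015264, plus strand: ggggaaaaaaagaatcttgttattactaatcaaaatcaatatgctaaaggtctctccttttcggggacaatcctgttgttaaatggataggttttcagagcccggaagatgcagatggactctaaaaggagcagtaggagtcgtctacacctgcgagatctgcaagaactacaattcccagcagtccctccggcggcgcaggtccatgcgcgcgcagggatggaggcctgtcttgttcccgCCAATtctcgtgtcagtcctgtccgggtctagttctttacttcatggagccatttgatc
Rfc3, chr5:151651159-151651458, minus strand: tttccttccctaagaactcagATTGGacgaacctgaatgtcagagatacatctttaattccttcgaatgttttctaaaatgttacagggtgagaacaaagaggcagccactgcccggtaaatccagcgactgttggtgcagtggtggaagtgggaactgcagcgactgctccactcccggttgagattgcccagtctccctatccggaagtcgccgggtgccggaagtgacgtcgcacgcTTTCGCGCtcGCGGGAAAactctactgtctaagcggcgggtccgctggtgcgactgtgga
Pcna held 2 GC boxes and 1 CCAAT box, Prim1 1 CCAAT box, and Rfc3 1 CCAAT box and 2 E2F-type matches. Over all 12 windows of the 9 genes, E2F-type letters were found in 3 (Rfc3, Pola1 and 1 of the 3 windows of Lig1), against 2.26% of all 32851 windows of the table. GC boxes were found in 6 of the 12 windows against 35.7% of all, and CCAAT boxes in 5 against 37.4%. The letters TGACGT, part of the cAMP response element and not capitalised above, were found in 4 of the 12 (Rfc1, Rfc3, Rfc4 and Pola1) against 7.51%. Both windows of Fen1 and that of Rfc5 held none of these letters.

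Pcna encodes the sliding clamp. Its single probe set, 1417947_at, had intensities of 445.7, 3275.1, 2659.6 and 1433 on one-cell arrays 1 to 4, against 9593.5, 5744.9, 6716.1 and 5310.5 on MII arrays 1 to 4. Every one-cell value lay below every MII value, and the lowest came from one-cell array 1. The mean was 1953 ± 1264 (SD, n = 4) in one-cell embryos and 6841 ± 1927 in MII oocytes. The log2 change was -2.11 ± 0.50 (SE, limma adjusted p = 0.00358), lower than that of all but 1.7% of the probe sets tested. Within each array, Pcna ranked at percentiles 90.5 to 98.5 of all probe sets in one-cell embryos and 98.9 to 99.7 in MII oocytes, so its signal was also high within the one-cell arrays.

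The size of the Pcna change depended on the array with the bright controls. Without one-cell array 1 it was -1.52 ± 0.31 (limma adjusted p = 0.00153). With the control signal as a covariate it was -1.02 ± 0.39 and no longer passed (limma adjusted p = 0.0699). The change was below 0 in all 18 alternatives, from -2.49 to -1.02.

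**Figure D1:**
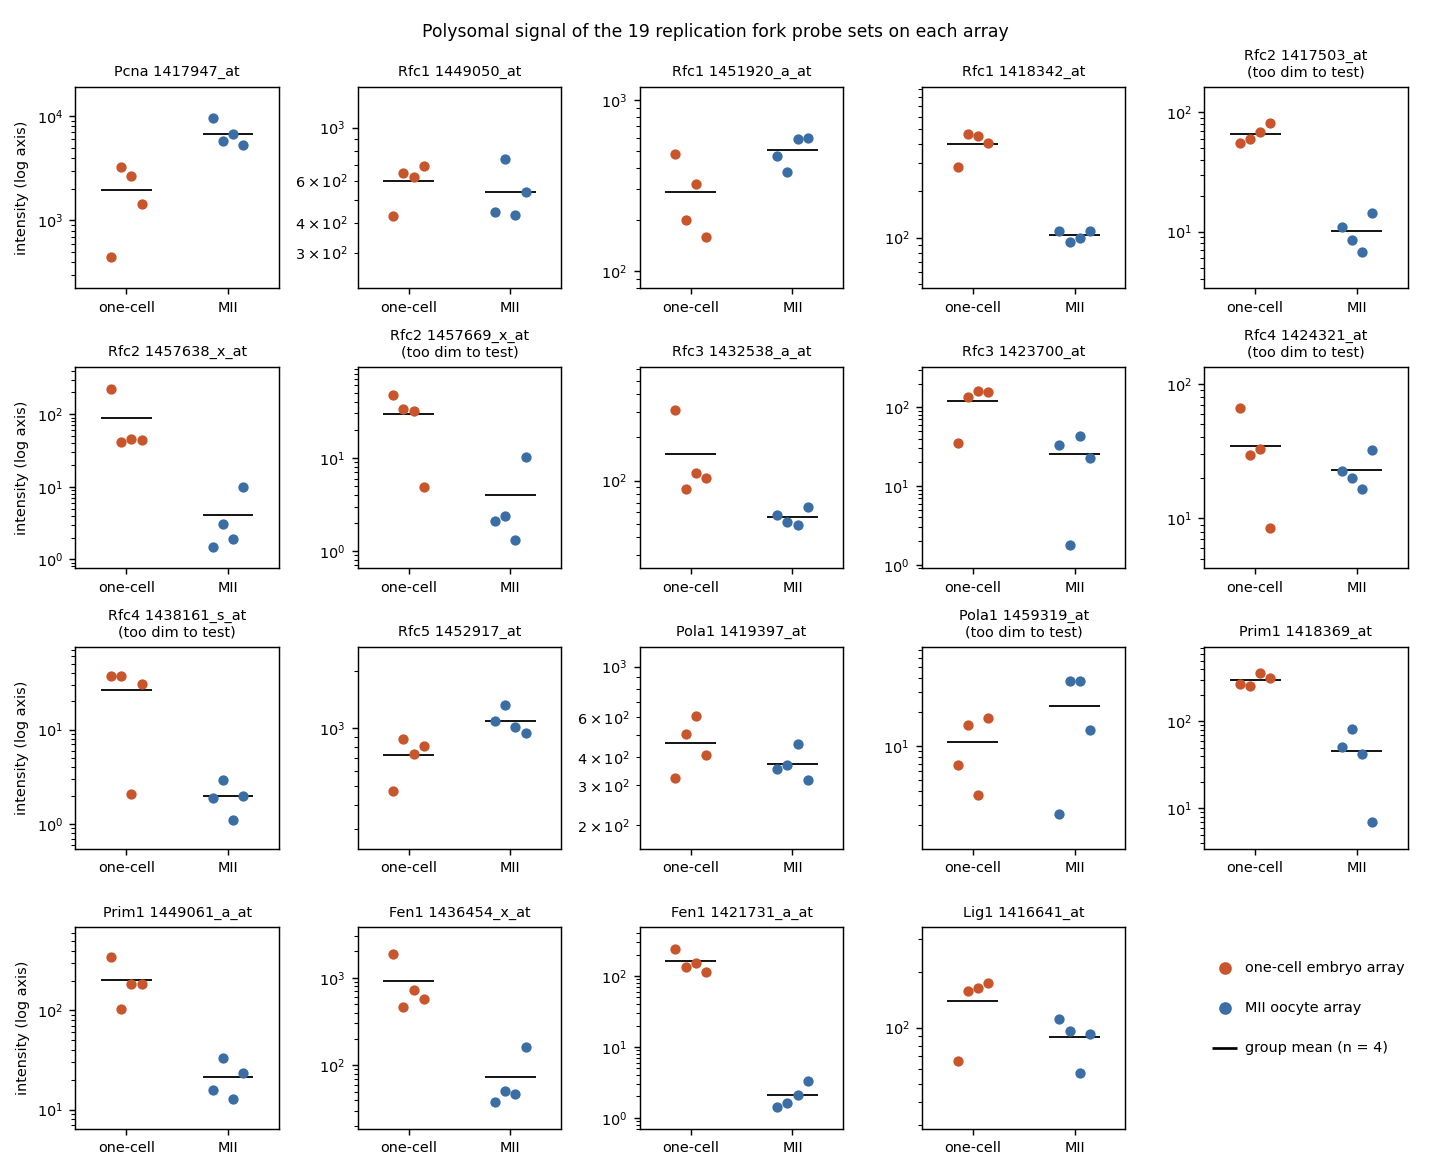
Intensity of each of the 19 probe sets (log axis, own scale in each panel) on the 4 one-cell embryo arrays (red-orange, left) and the 4 MII oocyte arrays (blue, right), with the group means as lines. Pcna is lower on all 4 one-cell arrays, while Prim1 and Fen1 are higher on all 4 with their brighter probe sets. Their dimmer probe sets are also higher there, but were bright enough to test only through the one-cell arrays.

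The clamp loader genes gave mixed results. Rfc1, the large subunit, has 3 tested probe sets that gave 3 different pictures. Probe set 1418342_at read 283.9, 466, 451 and 408.6 on one-cell arrays 1 to 4, against 110.6, 94.2, 99.9 and 109.7 on the MII arrays. The groups lay far apart, and the log2 change was 1.84 ± 0.28 (limma adjusted p = 9.04e-05). Probe set 1449050_at overlapped between the groups, with 595.2 ± 116.7 in one-cell embryos and 537.3 ± 143.9 in MII oocytes (SD, n = 4). Its change of 0.16 ± 0.29 did not pass the test, and the 95% interval ran from -0.45 to 0.76. The third, 1451920_a_at, read 485.3, 198.9, 321.5 and 158.5 on one-cell arrays, against 468.5, 380.2, 591.8 and 596.1 on MII arrays. Its change of -0.89 ± 0.34 missed the threshold with all arrays (limma adjusted p = 0.0547). It passed as lower without one-cell array 1, the only one-cell array inside the MII range (-1.17 ± 0.29, limma adjusted p = 0.00536). It also passed without MII array 2 (-1.02 ± 0.37, limma adjusted p = 0.0472), with arrays centred on their median (limma adjusted p = 0.0359), with the filter at percentile 75 (limma adjusted p = 0.038) and with array weights (-1.18, limma adjusted p = 0.0021).

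The disagreement within Rfc1 was examined by the difference between 2 probe sets on the same array, which largely removes the scaling of the array. For 1449050_at minus 1418342_at this difference was 0.56 ± 0.13 in one-cell embryos and 2.24 ± 0.43 in MII oocytes on the log2 scale (SD, n = 4). For 1451920_a_at minus 1418342_at it was -0.56 ± 0.95 in one-cell embryos and 2.17 ± 0.27 in MII oocytes. The groups did not overlap in either case, and the exact permutation test (two-sided) gave p = 0.0286, the smallest possible with 4 against 4 arrays, and 0.0857 after adjustment over 6 pairs of probe sets. The mean of the 3 probe sets changed by 0.37 ± 0.20 (limma adjusted p = 0.178), so no direction is given for Rfc1 as a gene. In the 4 other pairs of one gene, 1 each for Rfc3, Prim1 and Fen1 and the remaining one for Rfc1, the exact p lay between 0.2 and 0.971.

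Among the small loader subunits, the 2 tested probe sets of Rfc3 rose, but their calls were fragile. Probe set 1432538_a_at read 310.6, 87, 113.3 and 104.8 on one-cell arrays, against 57.5, 51.6, 48.6 and 65.7 on MII arrays. All one-cell values were higher and the change was 1.14 ± 0.38 (limma adjusted p = 0.0284). This call was lost without MII array 1, 2 or 3 (limma adjusted p = 0.0591 to 0.075), and leaving out one-cell array 1 gave 0.76 ± 0.27 (limma adjusted p = 0.0395). Probe set 1423700_at read 35.3, 133.5, 161.9 and 156.2 on one-cell arrays, against 33.2, 1.8, 43.1 and 22.9 on MII arrays. The groups overlapped through one-cell array 1, and the change was 1.93 ± 0.53 (limma adjusted p = 0.01) or 2.38 ± 0.44 without that array. Both Rfc3 calls were lost after quantile normalization (limma adjusted p = 0.103 and 0.099) and with arrays centred on their median (limma adjusted p = 0.0601 and 0.0722). With the hybridization controls as a covariate 1432538_a_at did not pass (0.58 ± 0.36, limma adjusted p = 0.265), while 1423700_at did (2.79 ± 0.52, limma adjusted p = 0.00121).

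Rfc2 and Rfc4, also small subunits, were measured near the lower end of the range. Of 3 probe sets of Rfc2, 1457638_x_at was tested, with 223.4, 41.2, 45.4 and 44.7 on one-cell arrays, against 1.5, 3.1, 1.9 and 10 on MII arrays. It lay above the median on no MII array and was kept through its one-cell values, so its change of 2.50 ± 0.58 is a description (1.97 ± 0.53 without one-cell array 1). With the hybridization controls as a covariate it did not pass (limma adjusted p = 0.0539). The suffix x marks probe sets that, by the array maker's naming, may bind related transcripts. Probe set 1417503_at of Rfc2, too dim for the filter, also did not overlap, with 66.28 ± 11.5 in one-cell embryos and 10.1 ± 3.286 in MII oocytes (SD, n = 4). The remaining probe set of Rfc2 overlapped between the groups, with 4.9 to 47.2 in one-cell embryos and 1.3 to 10.3 in MII oocytes. Neither probe set of Rfc4 was bright enough to test. Probe set 1424321_at spanned 8.5 to 66.8 in one-cell embryos and 16.7 to 32.2 in MII oocytes, and 1438161_s_at spanned 2.1 to 37.4 in one-cell embryos and 1.1 to 2.9 in MII oocytes. Both overlapped between the groups. With no filter on dim probe sets the second was called higher (1.43 ± 0.43, limma adjusted p = 0.0309), with 1 one-cell array inside the MII range.

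Rfc5, the other small subunit, had a single probe set, 1452917_at. It read 471.2, 885.5, 732.6 and 808.1 on one-cell arrays, against 1097.5, 1328.7, 1020.7 and 943.2 on MII arrays. All one-cell values were lower, yet the change of -0.62 ± 0.29 did not pass (limma adjusted p = 0.113, 95% interval -1.22 to -0.02), nor in any of its 18 alternatives (limma adjusted p = 0.0844 to 0.406).

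**Figure D2:**
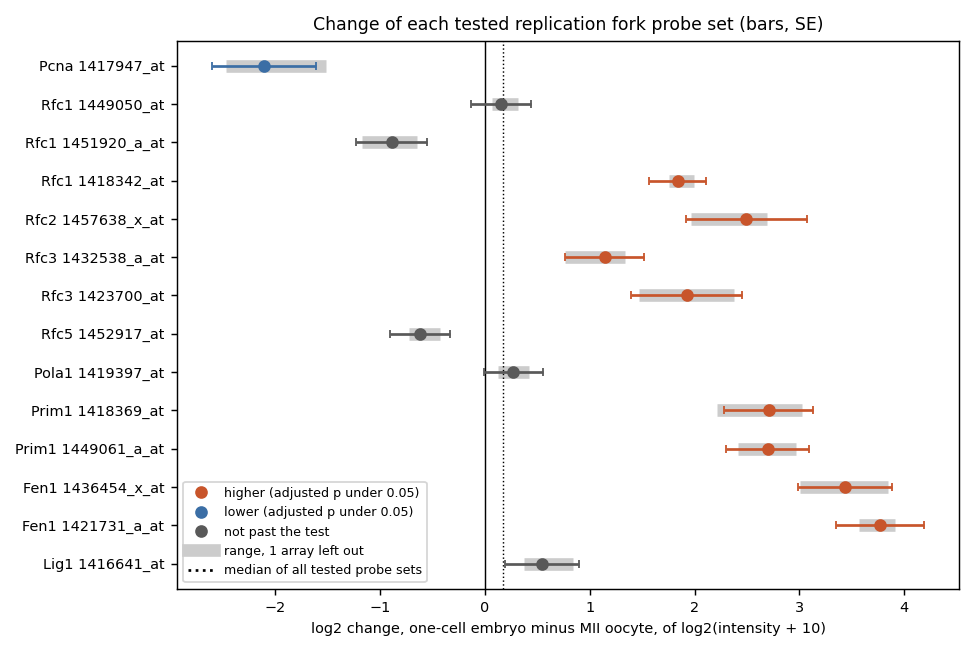
Change in log2(intensity + 10), one-cell embryo minus MII oocyte, of the 14 tested probe sets, with the limma SE as bars and the range over fits that leave out 1 array in grey. Pcna lies at -2.11, the probe sets of Prim1 and Fen1 between 2.70 and 3.77, and those of Rfc1 on both sides of 0. The dimmer probe sets of Prim1 and Fen1 and that of Rfc2 were kept only through their one-cell values.

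In primer synthesis a call was made for Prim1 and not for Pola1. The change of Prim1 was not tested against that of Pola1. Prim1, which makes the RNA primer, rose with its brighter probe set. Probe set 1418369_at read 270.2, 256.8, 355.9 and 317.9 on one-cell arrays, against 50.5, 82.3, 42.5 and 6.9 on MII arrays. The change was 2.71 ± 0.43 (limma adjusted p = 0.000142), and all one-cell values lay above all MII values. Probe set 1449061_a_at read 344.8, 102.3, 184 and 183.2 on one-cell arrays, against 15.6, 33.5, 12.8 and 23.2 on MII arrays. It lay above the median on none of the MII arrays and was kept through its one-cell values, so its change of 2.70 ± 0.39 is a description. The suffix a marks probe sets that bind alternative transcripts of a gene. Leaving out one-cell array 1 gave 2.75 ± 0.44 and 2.41 ± 0.34.

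Pola1, the catalytic subunit of DNA polymerase α, did not pass the test. Its brighter probe set, 1419397_at, read 324.1, 503.4, 609.2 and 407.6 on one-cell arrays, against 354.6, 369.5, 455.5 and 315.7 on MII arrays. The groups overlapped, and the change was 0.27 ± 0.28 (95% interval -0.32 to 0.86). The other, 1459319_at, was too dim to test, with 3.7 to 17.7 in one-cell embryos and 2.5 to 37.2 in MII oocytes.

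Fen1, a flap nuclease, had the largest rise among the members tested. Its brighter probe set has the suffix x, so by the array maker's naming it may bind related transcripts. Probe set 1436454_x_at read 1882.4, 465.4, 724.7 and 566.5 on one-cell arrays, against 37.6, 50.3, 46.7 and 162.5 on MII arrays. The lowest one-cell value was well above the highest MII value, that of array 4. The change was 3.43 ± 0.45 (limma adjusted p = 2.55e-05). Leaving out one-cell array 1, the brightest, gave 3.01 ± 0.38. Probe set 1421731_a_at read 243.2, 134.6, 154.6 and 112.8 on one-cell arrays, against 1.4, 1.6, 2.1 and 3.3 on MII arrays. It ranked at percentiles 73.5 to 82.4 on one-cell arrays and 3.3 to 10.8 on MII arrays, where it was far below the array median. It was kept through its one-cell values, so its change of 3.77 ± 0.42 is a description, and it was 5.69 with an offset of 1 and 2.46 with an offset of 32 in place of 10.

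Lig1, the ligase that acts after Fen1, did not pass with all arrays. Its probe set 1416641_at read 66.2, 157.1, 162.8 and 173 on one-cell arrays, against 111.7, 96.4, 57.2 and 92.1 on MII arrays. One-cell array 1 fell within the MII range and the other 3 lay above it. The change was 0.55 ± 0.35 (limma adjusted p = 0.273, 95% interval -0.20 to 1.29), or 0.84 ± 0.27 without one-cell array 1 (limma adjusted p = 0.0259). After quantile normalization it was -0.01 ± 0.42.

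The change of Pcna differed from that of each other member that could be tested, leaving Rfc2 aside. On each array, log2 Pcna minus log2 of the other gene's brightest tested probe set was taken, which largely removes array scaling. For Fen1 this difference was 0.98 ± 2.11 in one-cell embryos and 6.52 ± 1.14 in MII oocytes (SD, n = 4), a shift of -5.54. For Prim1 it was 2.33 ± 1.25 in one-cell embryos and 7.14 ± 0.96 in MII oocytes, a shift of -4.81. The smallest shift was that against Rfc5, the member that moved most nearly with it (1.12 ± 0.94 in one-cell embryos and 2.60 ± 0.42 in MII oocytes, a shift of -1.49). The other shifts were -3.25 (Rfc3), -2.65 (Lig1), -2.38 (Pola1) and -2.26 (Rfc1). That against Rfc2, kept only through its one-cell values, is a description (-4.60, or -6.09 with an offset of 1 and -3.60 with an offset of 32). In every comparison except that with Rfc2, the lack of overlap between the groups gave p = 0.0286 in the two-sided exact permutation test. It was the same after Benjamini-Hochberg adjustment over the 8 that were run. The groups did not overlap for Rfc2 either, but its filter favoured such a gap, so no p-value is given for it. The comparisons share Pcna and the arrays. Leaving out one-cell array 1 brought the shifts to between -4.53 (Fen1) and -1.09 (Rfc5).

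**Figure D3:**
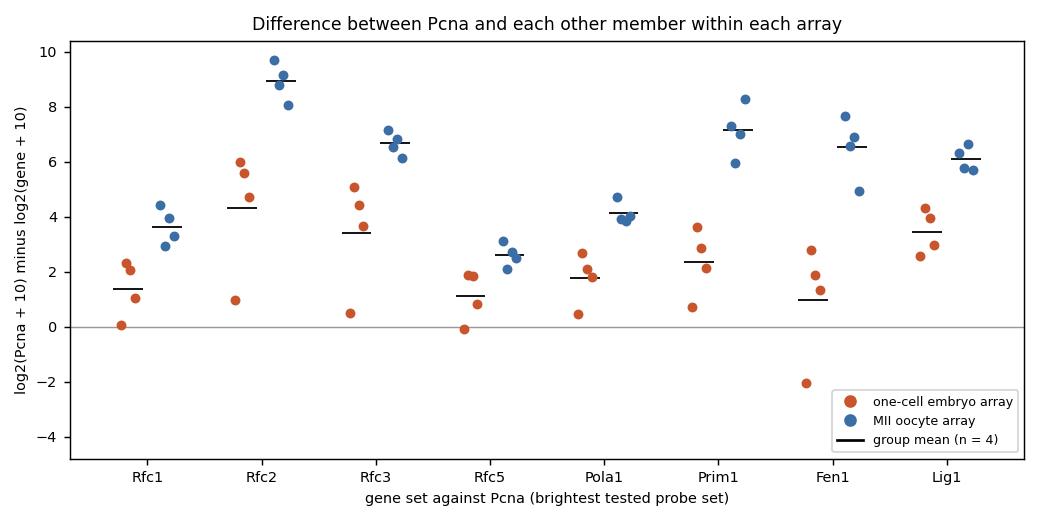
Log2(Pcna + 10) minus log2(gene + 10) on each array for the 8 other members with a tested probe set, one-cell embryo arrays (red-orange) left of MII oocyte arrays (blue), with group means as lines. In each pair all one-cell points lie below all MII points, and one-cell array 1 gives the lowest point of all 8 pairs. Rfc2 was kept only through its one-cell values, so its pair is a description.

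The 5 named genes whose signal over the 8 arrays was most like that of Pcna were Dut, Paxip1, Hnrnpab, Papss1 and Rrm2. Likeness was the root mean square difference of log2 signal after each probe set's own mean was subtracted, over 19109 candidate probe sets. It was 0.122 for Dut and 0.201 for Rrm2, against a median of 1.58 for all candidates. Dut, which removes dUTP from the nucleotide pool, had 184.7, 1188.8, 954.1 and 514 on one-cell arrays, against 3062.3, 2124.3, 2797.3 and 1984.1 on MII arrays. Rrm2, the small subunit of ribonucleotide reductase, had 360.9, 2514.9, 1522.1 and 1032.7 on one-cell arrays, against 5060.8, 4359.8, 4648.5 and 3658.4 on MII arrays. As in Pcna, one-cell array 1 was the lowest of the 8 arrays for all 5 genes and one-cell array 4 the next. The 8 arrays share the group difference and the array effects, so likeness is a description. The differences for Paxip1 (0.161), Hnrnpab (0.174) and Papss1 (0.175) were larger than that for Dut and smaller than that for Rrm2. Their log2 changes were -2.175, -1.882 and -2.256.

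**Figure D4:**
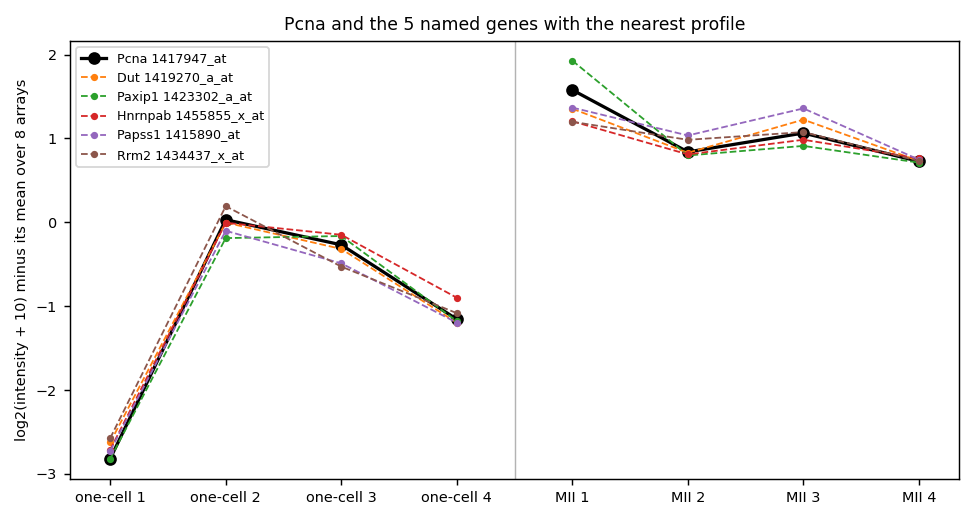
Log2(intensity + 10) minus its mean over the 8 arrays for Pcna (black) and the 5 named genes with the nearest profile, one-cell embryo arrays left of MII oocyte arrays. The lines join arrays only to show which points belong to 1 probe set, and all 6 lie lowest on one-cell array 1.

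Other genes of the fork were grouped by role in 7 lists, with 50 genes that had a probe set, of which 44 were bright enough to test. Each gene was taken by its brightest tested probe set. Of the 44, 9 were higher and 15 lower in one-cell embryos, where 34.8% of the 12359 genes tested were called, 20.1% as higher and 14.7% as lower. The 9 include Rpa2, which was bright enough only through its one-cell arrays. The median log2 change was -0.24 for the 44 and 0.16 for all genes. Without one-cell array 1 the counts were 9 higher and 14 lower, after centring of the arrays 6 and 9, and with the hybridization controls as a covariate 8 and 6. Calls over all probe sets moved too. Of all 23336 tested, 4782 were higher and 3276 lower without one-cell array 1. The counts were 2699 and 2822 after centring, and 3929 and 2131 with the covariate.

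Of 9 polymerase and primase genes, 2 rose and 2 fell. Pold3 (2.49 ± 0.38) and Pold2 (2.32 ± 0.34), accessory subunits of polymerase δ, rose. Prim2, the partner of Prim1 in the primase, fell by 2.40 on the log2 scale (SE 0.37), and 1 of its other 2 tested probe sets fell too. Its intensity was 463.7 ± 258.4 in one-cell embryos and 2208 ± 279.2 in MII oocytes (SD, n = 4). Pole3, a small subunit of polymerase ε, fell (-1.98 ± 0.31), although neither of its other 2 tested probe sets passed. The remaining 5 of 9 did not pass, among them Pole4 (-0.82 ± 0.36) and Pole2 (-1.26 ± 0.52).

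Of 4 genes for single-strand binding, 2 rose and 1 fell, among them subunits of RPA, the complex that coats single-stranded DNA. One of the 2 that rose, Rpa2, was kept only through its one-cell values, so its change of 3.10 ± 0.39 is a description, with a signal of 190.3 ± 38.58 in one-cell embryos and 14.77 ± 10.73 in MII oocytes (SD, n = 4) and no MII array with a signal above its median. Rpa3 fell (-1.18 ± 0.35). Rpa1 did not pass (-0.09 ± 0.38). Ssbp1, the mitochondrial single-strand binding protein, rose (2.24 ± 0.35), without a call in either of its other 2 tested probe sets. Of 3 other clamp loaders and unloaders, Atad5, which takes PCNA off DNA, fell (-0.89 ± 0.30), and Rad17 (0.18 ± 0.31) and Chtf8 (-0.09 ± 0.45) did not pass.

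In Okazaki fragment processing and ligation, 1 gene rose and 3 fell among 7. The flap nuclease and helicase Dna2 (-1.18 ± 0.37) and Rnaseh1 (-1.61 ± 0.31), which cuts RNA in RNA-DNA hybrids, fell, unlike Fen1. Lig4 (-1.97 ± 0.41), known for end joining of double-strand breaks, fell as well. Exo1 (1.70 ± 0.28), an exonuclease known from mismatch repair, rose, but its other tested probe set did not pass. Lig3 (-0.21 ± 0.38) and Rnaseh2c (1.03 ± 0.48) did not pass. Of 7 fork protection genes and topoisomerases, 1 rose and 3 fell. Top2a rose (2.19 ± 0.29), while Wdhd1 (-1.04 ± 0.30), Top1 (-0.97 ± 0.32) and Tipin (-0.90 ± 0.32) fell. Timeless (0.05 ± 0.32), the partner of Tipin, did not pass, nor did Clspn (-0.32 ± 0.34).

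Of 9 tested genes in the list named PCNA partners, 2 rose and 2 fell. Chaf1b (1.76 ± 0.41), a subunit of the chromatin assembly factor that PCNA recruits, and Cdkn1b (0.85 ± 0.30), a cyclin-dependent kinase inhibitor, rose. The second tested probe set of each did not pass. Msh6 (-1.95 ± 0.49), a mismatch recognition protein, and Dnmt1 (-1.05 ± 0.33), the maintenance DNA methyltransferase, fell. Ung (0.17 ± 0.28) and Uhrf1 (-0.27 ± 0.32) did not pass. Of 5 genes of nucleotide supply, 1 rose and 3 fell. Dut (-2.07 ± 0.45), Rrm2 (-1.996 ± 0.452) and Rrm2b (-1.41 ± 0.32) fell, and Tk1, the thymidine kinase of the salvage pathway, rose (1.05 ± 0.28). All 3 tested probe sets of Rrm2 fell, while the second of Dut did not pass. Rrm1, the large subunit of ribonucleotide reductase, did not pass (-0.76 ± 0.35).

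**Figure D5:**
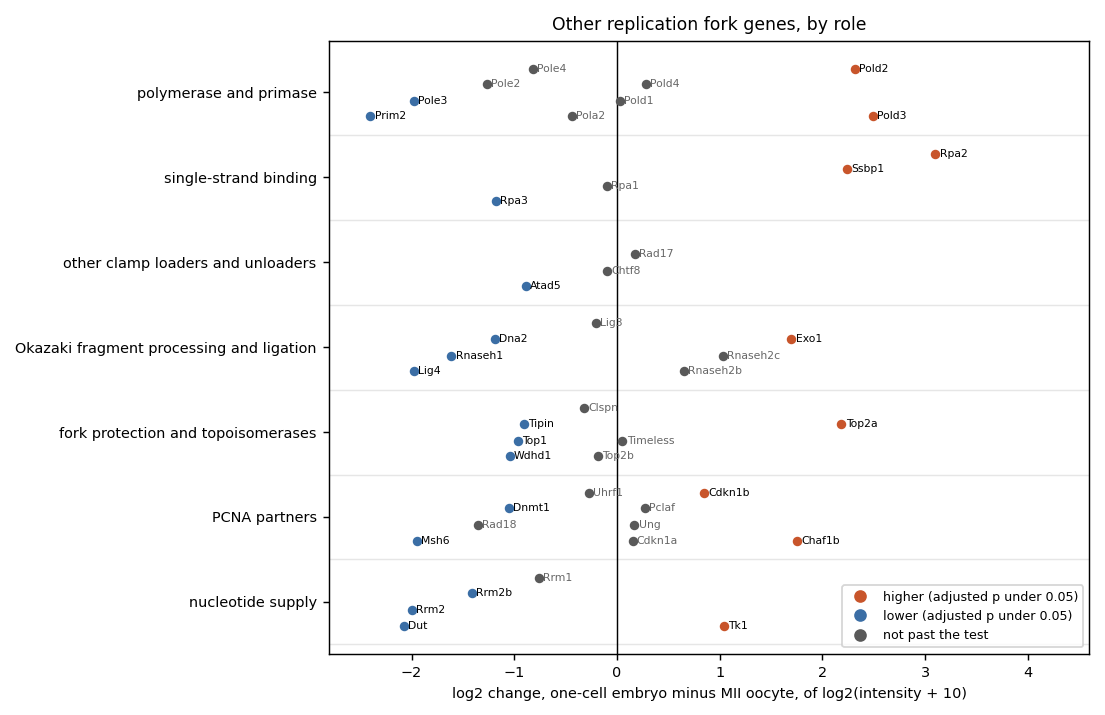
Change in log2(intensity + 10), one-cell embryo minus MII oocyte, of 44 other replication fork genes by their brightest tested probe set, in 7 role lists. Red-orange genes were higher and blue genes lower at an adjusted p under 0.05, and each list except that of other clamp loaders holds both. Rpa2 was kept only through its one-cell values.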

How the data were processed

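Polysomal RNA of 4 one-cell embryo and 4 MII oocyte batches was measured on 1-colour arrays. The values deposited are intensities on a linear scale, 1 for each probe set on each array. Per the labels, RNA was amplified in 2 rounds of in vitro transcription and labelled with biotin. The software and the scaling method are not given in the labels used here. The mean after trimming 2% at each end was 150 on each array while the medians differed, so intensities were used as deposited. An offset of 10 was added before log2, and a probe set was kept if above the array's median on at least 4 of 8 arrays (23336 of 45101, without 64 controls). Background correction and detection calls could not be added from these values.

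Contrasts (one-cell embryo minus MII oocyte) used limma 3.58.1 (R 4.3.3) with lmFit and eBayes, allowing a trend of variance on signal. Tests were two-sided, and p-values were adjusted after Benjamini and Hochberg over the kept probe sets, with a threshold of 0.05. Fold changes are on the log2(intensity + 10) scale and understate those of dim mRNAs. Differences within arrays were compared by exact permutation tests. The labels call the batches independent. The number of arrays limits the precision. Alternatives varied the scaling, offset, filter, variance model, array weights, a covariate and a block, and left out each array. The procedure was tested on simulated data. Members, lists and tests were chosen with earlier results of these data known. All member probe sets are named, of the lists those past the test and up to 2 others each, the brightest, and the 5 genes nearest to Pcna, leaving out clone and prediction names. Gene names are those of the platform annotation.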

Additional observations from a re-analysis of the deposited data

Results flagged for a closer look

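In 5 of the 38 groups of 4 arrays examined for the 19 probe sets, 1 array stood apart from the other 3 by Dixon's criterion. Chance flags about 1 in 20 groups, or 1.9 of 38. In 3 cases it was one-cell array 1, the array with the bright hybridization controls. Rfc2 1457638_x_at read 223.4 there, against 41.2 to 45.4 on one-cell arrays 2 to 4. Rfc3 1423700_at read 35.3 there, against 133.5 to 161.9, and Lig1 1416641_at read 66.2, against 157.1 to 173. The other tested probe set of Rfc3, 1432538_a_at, was highest on that array (310.6). On one-cell array 3, Rfc4 1438161_s_at read 2.1, against 30.3 to 37.4 for the rest of that group. On MII array 4, Rfc2 1457669_x_at read 10.3, against 1.3 to 2.4 on the other MII arrays.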

How the results depend on the processing

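The directions and calls of Prim1 1418369_at, Fen1 1436454_x_at and Rfc1 1418342_at were kept under all alternatives run. The 9 member calls ranged from 8 (without MII array 1 or 3) to 11 (without one-cell array 1) when 1 array was left out, the 24 list genes from 18 to 26 and all 7493 called probe sets from 6077 to 8058. With the filter at percentile 75, 5 of 9 member probe sets were called (3 higher, 2 lower), where 6261 of all 11803 tested were called. Of the 14 member probe sets, 7 were called after quantile normalization, where 6979 of all 23336 were. With arrays centred on their median 8 of 14 were called, beside 5521 of all 23336. With the hybridization controls as a covariate 6 of 14 were called, beside 6060 of all 23336. List genes called were 15 with arrays centred and 14 with that covariate. The split of all calls was 4511 higher and 2982 lower, against 3391 and 3588 after quantile normalization, 2699 and 2822 with arrays centred and 3278 and 2983 with the filter at percentile 75. These scalings moved the median change of all probe sets to -0.12 (quantile) and -0.17 (centred), against 0.17. The sign turned for Lig1 after quantile normalization (-0.014), for Rfc1 1449050_at (-0.22) and Pola1 1419397_at (-0.11) with arrays centred, for the difference between the Prim1 probe sets with an offset of 1 (-0.059) and for that between the Fen1 probe sets with an offset of 32 (0.61). The difference between the Prim1 probe sets also turned without MII array 4 (-0.530) and without one-cell array 2 (-0.193), 3 (-0.082) or 4 (-0.031). That between the Fen1 probe sets turned without MII array 4 (0.029). None of these had passed the test, and the cause was not tested. Replicate numbers did not pair the samples (correlation of deviations -0.159 to 0.143), and with the replicate block 9 member probe sets, 25 list genes and 7209 probe sets were called. Dim probe sets limit Rfc2 and Rfc4.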
